A study of Mus musculus with 4 samples.

Results

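The data describe 8 genes that mark blood cells in mouse liver: the haemoglobin genes Hba-a1, Hbb-bs and Hbb-bt, the erythroid genes Alas2 and Slc4a1, and the platelet genes Pf4, Ppbp and Itga2b. They were chosen by name, and every probe whose platform symbol or synonym is one of these names was taken, which gave 18 of the 45281 probes and 8 of the 19057 genes on the array. Hba-a1 has 1 probe, Hbb-bs 6, Hbb-bt 4, Alas2, Slc4a1 and Pf4 1 each, and Ppbp and Itga2b 2 each. Of the 18 probes, 12 were detected on all 4 arrays and 1, of Itga2b, on none. Detected means a detection p-value under 0.01, the share of negative controls that read as bright.

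All 4 livers came from Med1 floxed mice (Med1fl/fl) on the C57BL6/J background, aged 5.5 weeks, and each mouse had received an adenovirus through the tail vein. The virus was either Ad-His-Med1, here Ad-Med1, which carries the gene of the Mediator subunit Med1, or Ad-LacZ, which carries beta-galactosidase and was the control. Livers were taken 3 or 5 days later, so that the groups are Ad-Med1 day 3, Ad-LacZ day 3, Ad-Med1 day 5 and Ad-LacZ day 5, with 1 array each. No Cre is named in the labels, the floxed allele is common to both viruses, and the labels do not say whether an array holds 1 animal or a pool. The sources used here do not say whether blood was flushed from the livers.

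Haemoglobin carries oxygen in red cells as a tetramer of alpha and beta globin chains around haem, and young red cells (reticulocytes) keep large amounts of globin RNA after the nucleus is lost. In mice the liver makes red cells in fetal life, and in the adult its erythroid RNA comes mostly from blood in the vessels unless erythropoiesis takes place outside the marrow. Platelets have no nucleus either and carry RNA from the megakaryocytes that shed them, so Pf4 and Ppbp, 2 chemokines stored in platelet granules, and Itga2b, the alpha chain of the fibrinogen receptor, are used as their markers. In bulk tissue RNA, fewer cells of a type and less RNA per cell cannot be told apart.

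Because the globin genes and Alas2 had the same array as their lowest in quantile-normalized signals, the 300 bases around their start sites (250 before and 50 after) are shown, from RefSeq in build GRCm38.p6. Of the 8 genes, 7 had such a sequence in the table. Capitals mark 2 short motifs on either strand, which read GATAA and CACCC, or TTATC and GGGTG when they lie on the other strand. The first is the core of the sites of GATA factors such as GATA1 and the second the core of the sites of Krüppel-like factors such as KLF1. The windows are chr11:32283422-32283721 (+ strand), chr7:103827879-103828178 (- strand), chr7:103813874-103814173 (- strand) and chrX:150547167-150547466 (+ strand).
Hba-a1: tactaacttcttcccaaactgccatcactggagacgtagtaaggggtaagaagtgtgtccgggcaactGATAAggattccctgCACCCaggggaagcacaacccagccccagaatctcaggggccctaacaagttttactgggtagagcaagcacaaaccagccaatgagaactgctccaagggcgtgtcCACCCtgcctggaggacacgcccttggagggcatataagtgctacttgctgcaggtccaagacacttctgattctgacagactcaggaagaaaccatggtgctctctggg
Hbb-bs: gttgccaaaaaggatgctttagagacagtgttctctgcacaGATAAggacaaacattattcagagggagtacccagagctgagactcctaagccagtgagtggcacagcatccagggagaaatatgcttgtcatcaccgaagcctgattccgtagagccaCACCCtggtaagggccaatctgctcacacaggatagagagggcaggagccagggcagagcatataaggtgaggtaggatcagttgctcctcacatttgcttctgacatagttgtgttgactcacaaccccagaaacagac
Hbb-bt: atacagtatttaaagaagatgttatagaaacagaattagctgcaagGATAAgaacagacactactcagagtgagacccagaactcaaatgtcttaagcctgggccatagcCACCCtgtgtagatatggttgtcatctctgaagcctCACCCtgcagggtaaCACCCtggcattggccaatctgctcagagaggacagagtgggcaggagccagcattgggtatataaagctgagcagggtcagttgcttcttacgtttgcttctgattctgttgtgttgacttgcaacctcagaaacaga
Alas2: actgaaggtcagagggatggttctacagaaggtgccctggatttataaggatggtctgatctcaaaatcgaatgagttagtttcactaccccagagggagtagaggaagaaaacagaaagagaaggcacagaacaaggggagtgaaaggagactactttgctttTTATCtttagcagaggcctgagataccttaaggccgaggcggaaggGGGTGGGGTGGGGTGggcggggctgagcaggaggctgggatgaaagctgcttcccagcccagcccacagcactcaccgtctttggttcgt

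Each of these 4 promoters held both motifs, against 12.6% of 32851 promoters of the same length. The 4 genes were picked by name and by their shared lowest array, and 3 of them are globin genes. The comparison is thus a description and not a test of enrichment. What part the motifs had in the day 3 values was not tested. GATAA was in 25.4% of all promoters and CACCC in 57.5%, each counted whether or not the other was there. GATAA began at -182 from the start site in Hba-a1, at -209 in Hbb-bs and at -204 in Hbb-bt, and TTATC at -86 in Alas2. Hbb-bt held 3 CACCC matches, at -140, -104 and -89, Hbb-bs held 1, at -90, and Hba-a1 held 2, at -167 and -60. Alas2 held 3 GGGTG matches in tandem, at -40, -35 and -30. Hbb-bs and Hbb-bt lie side by side on chromosome 7 with no annotated gene between them, and their windows were 72.7% identical in a global alignment. Hba-a1 and its copy Hba-a2 on chromosome 11 have 1 gene between them, Hbq1b, and their windows were 98.0% identical. A probe of one alpha or beta gene may also read the other gene of its pair. The windows, mostly bases before the start site, cannot show this, and probe letters were not analysed here.

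The platelet pair Pf4 and Ppbp also lie side by side, on chromosome 5, and are shown because they differed in the opposite direction to the globins. Their windows are chr5:90772185-90772484 (+ strand) and chr5:90768268-90768567 (+ strand). Pf4 held 1 GATAA, at 38 bases after the start, and no CACCC, and neither motif was in the window of Ppbp. Itga2b held 1 GGGTG, at 2 bases after the start, and no GATAA.
Pf4: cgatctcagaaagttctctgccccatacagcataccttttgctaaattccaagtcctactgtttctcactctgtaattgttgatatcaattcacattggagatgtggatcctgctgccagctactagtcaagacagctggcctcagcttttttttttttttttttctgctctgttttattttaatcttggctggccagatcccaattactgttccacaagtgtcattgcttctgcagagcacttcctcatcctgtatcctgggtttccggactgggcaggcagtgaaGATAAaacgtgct
Ppbp: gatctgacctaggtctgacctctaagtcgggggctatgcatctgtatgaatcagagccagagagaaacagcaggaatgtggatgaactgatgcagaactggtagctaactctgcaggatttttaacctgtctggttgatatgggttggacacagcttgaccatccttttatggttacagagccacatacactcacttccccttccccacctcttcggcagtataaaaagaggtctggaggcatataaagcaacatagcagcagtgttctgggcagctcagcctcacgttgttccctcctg

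Facts of all 4 arrays bear on the values. The Ad-Med1 arrays were the brighter ones, with mean intensities of 925 (day 3) and 968 (day 5) where Ad-LacZ had 350.2 and 475. Signals were therefore corrected for background and normalized by quantiles, and are given as log2 values. Other scalings moved the median of all genes at day 3 from -0.03 to 1.14 with background correction alone and to 1.0 with uncorrected log2 values less the median probe of each array (centred values), and at day 5 from 0.07 to 0.91 and 0.83. A value near 0 under those scalings can therefore lie below the median of all genes. The share of genes past 2-fold that were higher in Ad-Med1 moved with it, from 59.2% to 97.4% and 99.3% at day 3 and from 57% to 95% and 98.3% at day 5. The Ad-LacZ day 3 array also stood apart, with 792 of 9566 genes (8.28%) at least 2-fold below each of the other 3 arrays. On Ad-Med1 day 3 this share was 0.711% (68 genes). Of the hepatocyte markers, the plasma protein genes Ttr, Apoa1, Apoa2 and Serpina1c and the urea cycle gene Cps1 read 14.05 or more on every array by their brightest probes. The probe of Alb read between 5.84 and 7.59, and that of Fgb was not detected.

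The first comparison asks how blood cell transcripts differed between the viruses at day 3. All 3 globin genes and Alas2 were more than 2-fold lower in Ad-Med1, while the platelet genes Pf4 and Ppbp were more than 2-fold higher. Slc4a1 and Itga2b were detected on neither array of that day, so that 6 of the 8 genes could be compared. Among 9052 genes tested at day 3, 12% were at least 2-fold lower and 17.4% at least 2-fold higher, against 4 and 2 of the 6. These differences come from 1 array a group and carry no replicate check or p-value. A gene is said to be past 2-fold by its measured signals, and where the dimmer array did not detect it the smallest fold its background allows is given as a bound.

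Hba-a1 encodes the adult alpha globin chain. Its log2 signal was 9.10 in Ad-Med1 day 3, 14.63 in Ad-LacZ day 3, 14.11 in Ad-Med1 day 5 and 14.06 in Ad-LacZ day 5. The Ad-Med1 day 3 array was the low one, while the other 3 lay within 0.56 of each other. At day 3 the signal was 46.2-fold lower in Ad-Med1 (-5.53 on the log2 scale). The lowest array was the same in the deposited intensities, which were 1001 in Ad-Med1 day 3 against 14832, 23750 and 14133, although the Ad-Med1 day 3 array was on average brighter than both Ad-LacZ arrays.

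Hbb-bs and Hbb-bt encode the 2 adult beta globin chains of the haplotype carried by C57BL/6 mice. The Hbb-bs probe with the highest mean signal, ILMN_2545963, read 10.15 in Ad-Med1 day 3, 14.61 in Ad-LacZ day 3, 14.74 in Ad-Med1 day 5 and 14.23 in Ad-LacZ day 5. The corresponding Hbb-bt probe, ILMN_1236718, read 9.67, 14.58, 14.46 and 14.00 on the same arrays in that order. Both genes thus repeated the pattern of Hba-a1, with Ad-Med1 day 3 below the other 3 arrays and those 3 close together. At day 3 Hbb-bs was 22.0-fold lower in Ad-Med1 (-4.46) and Hbb-bt stood at -4.91.

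Over all 11 globin probes, each was lowest on Ad-Med1 day 3. The virus difference at day 3 ranged from -5.53 to -2.03, with a median of -4.40. Most were alike: 9 of the probes lay between 13.90 and 14.74 on the 3 arrays other than Ad-Med1 day 3 and between 9.10 and 10.23 on that one. For these 9 the day 3 difference ranged from -5.53 to -4.22.

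The other 2 globin probes were set apart after their values were seen. ILMN_2544056, annotated to Hbb-bs, read 8.36 in Ad-Med1 day 3, 11.22 in Ad-LacZ day 3, 13.57 in Ad-Med1 day 5 and 13 in Ad-LacZ day 5. ILMN_1235372, annotated to Hbb-bt, read 7.77, 9.80, 11.67 and 11.33 in the same order. On both, the 2 arrays of day 3 were below the 2 arrays of day 5, and Ad-Med1 day 3 was again the lowest. Before scaling, the intensity of ILMN_1235372 was 462 in Ad-Med1 day 3 and 361 in Ad-LacZ day 3, so that its order on day 3 depends on the scaling of the arrays.

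**Figure D1:**
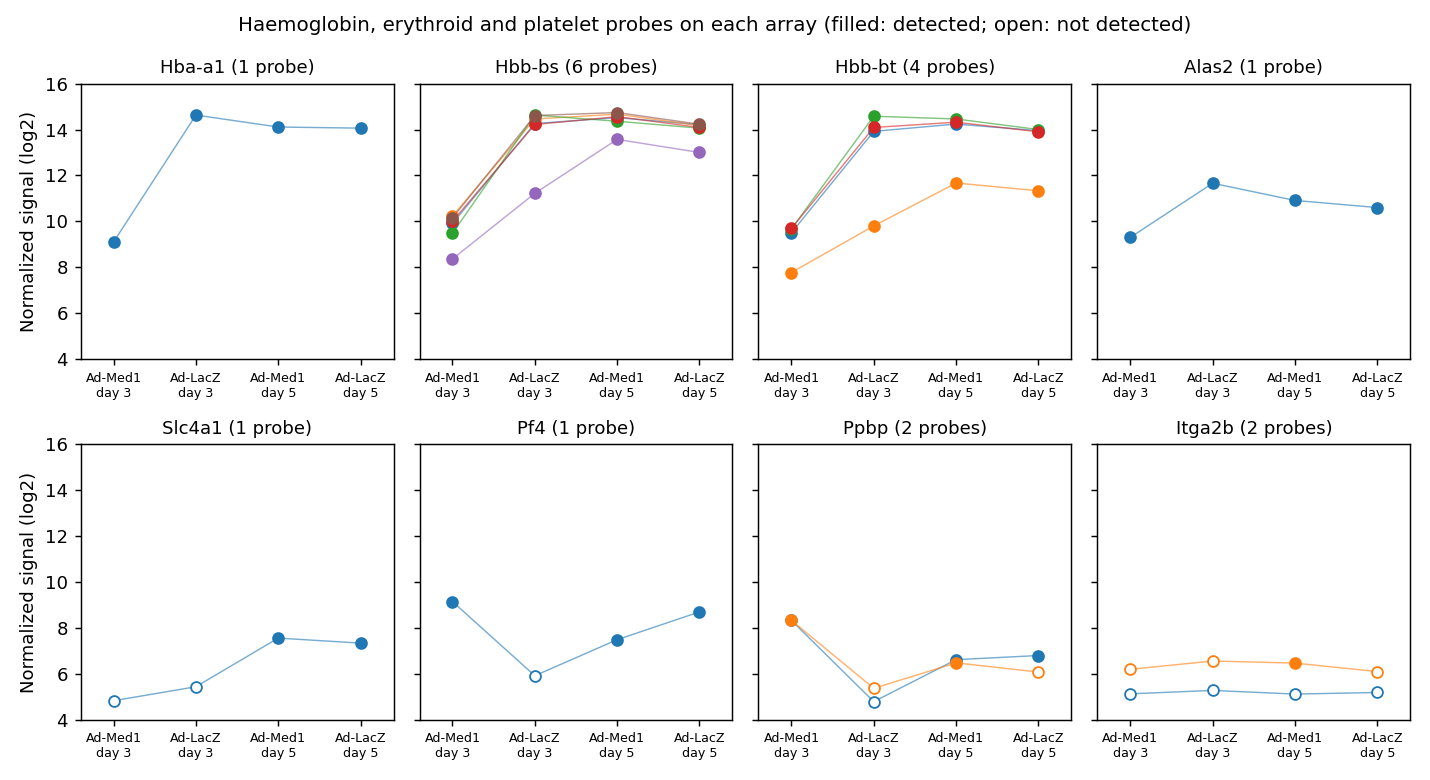
Normalized log2 signal (y axis) of each probe of the 8 genes on the 4 arrays (x axis), 1 panel a gene and 1 coloured line a probe. Filled points were detected and open points were not. All 11 globin probes are lowest on Ad-Med1 day 3, while Pf4 and Ppbp are highest there.

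Alas2 encodes the erythroid form of the enzyme that starts haem synthesis. It read 9.30 in Ad-Med1 day 3, 11.66 in Ad-LacZ day 3, 10.91 in Ad-Med1 day 5 and 10.60 in Ad-LacZ day 5. Ad-Med1 day 3 was the lowest here too, by 1.30 below the next array, and Ad-LacZ day 3 was the highest. Before scaling, its deposited intensity was 1128 in Ad-Med1 day 3 and 744 in Ad-LacZ day 5. With background correction alone and with centred values Ad-Med1 day 3 was still lowest, at -0.33 and -0.01 against Ad-LacZ day 5. The highest array depended on the scaling, since Ad-Med1 day 5 stood at -0.76, 0.29 and 0.50 against Ad-LacZ day 3 under the 3 scalings. The day 3 difference was -2.36 (5.14-fold lower in Ad-Med1), and it was -0.94 with centred values, where the median of all genes stood at 1.0. Alas1, which encodes the form of the same enzyme made in all cells and is abundant in liver, lay between 14.37 and 14.66 on all 4 arrays and differed by 0.13 at day 3.

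Slc4a1 encodes band 3, the anion exchanger of the red cell membrane. It was not detected on either day 3 array (4.83 in Ad-Med1 and 5.44 in Ad-LacZ) and was detected on both day 5 arrays (7.56 and 7.34). The split therefore followed the day and not the virus.

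Pf4, platelet factor 4, read 9.15 in Ad-Med1 day 3, 7.49 in Ad-Med1 day 5 and 8.70 in Ad-LacZ day 5, and was below detection in Ad-LacZ day 3 (5.92). Ad-Med1 day 3 was the highest array and Ad-LacZ day 3 the lowest. At day 3 it was at least 5.18-fold higher in Ad-Med1, where the bound is set against the lowest detected signal of the Ad-LacZ array.

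Ppbp encodes the precursor of beta-thromboglobulin. Probe ILMN_1228102 read 8.33 in Ad-Med1 day 3, 6.62 in Ad-Med1 day 5 and 6.80 in Ad-LacZ day 5, and was not detected on Ad-LacZ day 3 (4.79). Probe ILMN_2908435 read 8.33 in Ad-Med1 day 3 and 6.48 in Ad-Med1 day 5, and was not detected on the Ad-LacZ arrays (5.37 and 6.08). Both probes had Ad-Med1 day 3 as the highest array and Ad-LacZ day 3 as the lowest. Their day 3 bounds were at least 2.93-fold and 2.94-fold in favour of Ad-Med1.

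Itga2b was near background throughout. ILMN_2911123 was detected on Ad-Med1 day 5 alone (6.47), and the other arrays read 6.20, 6.56 and 6.10. ILMN_2732623 lay between 5.12 and 5.28 and was detected on no array. A pattern like that of Pf4 and Ppbp was not detectable for Itga2b at this signal.

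How much of the day 3 difference rests on its control array was asked by setting Ad-Med1 day 3 against Ad-LacZ day 5, which differ in day as well as in virus. Hba-a1 was then 31.3-fold lower, Hbb-bs 16.9-fold and Hbb-bt 20.1-fold (-4.97, -4.08 and -4.33). Alas2 stood at -1.30 and Slc4a1 at -2.51, the latter at least 2.17-fold lower. Pf4 stood at 0.45 and Ppbp at 1.53. Of all genes, 9.26% were past 2-fold higher and 6.64% past 2-fold lower. With background correction alone and with centred values, Alas2 stood at -0.33 and -0.01 and Pf4 at 1.54 and 1.47. All genes stood at 0.91 and 0.87 there. Less the median of all genes, Alas2 was -1.36, -1.23 and -0.88 under the 3 scalings, and Pf4 was 0.39, 0.63 and 0.60. The globin difference was thus present against either control. Less that median, Alas2 stayed lower against the day 5 control and Pf4 stayed under 2-fold. Set against Ad-LacZ day 3, Ad-Med1 day 5 gave -0.52 for Hba-a1, 0.13 for Hbb-bs, -0.11 for Hbb-bt and -0.76 for Alas2, all under 2-fold, while 18.1% of genes were higher and 11.7% lower. Slc4a1, Pf4 and Ppbp stood at 2.13, 1.57 and 1.83 there, with bounds of at least 1.73-fold and 1.64-fold for Slc4a1 and Pf4.

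At day 5 the question was whether these genes still differed between the viruses. All 8 were detected on at least 1 array of that day, none was at least 2-fold higher and 1, Pf4, was at least 2-fold lower in Ad-Med1, where 10.2% of 9261 genes were higher and 7.68% lower. Pf4 read 7.49 against 8.70 (-1.20, 2.30-fold lower). Less the median of all genes it stood at -1.27, and at -1.04 with background correction alone and -0.72 with centred values, so the direction held and the size depended on the scaling. Ppbp differed by -0.18 on ILMN_1228102 and by 0.41 on ILMN_2908435, opposite directions of a small size.

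The globin probes lay between 0.04 and 0.57 above Ad-LacZ at day 5, with a median of 0.42 (1.34-fold). With background correction alone Hba-a1 stood at -0.26, Hbb-bs at 0.02 and Hbb-bt at 0.14, and less the median of all genes Hba-a1 stood at -0.02 as reported and at -1.17. Alas2 differed by 0.31 and Slc4a1 by 0.23, and with background correction alone these were 1.23 and 1.18, where all genes had a median of 0.91.

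**Figure D2:**
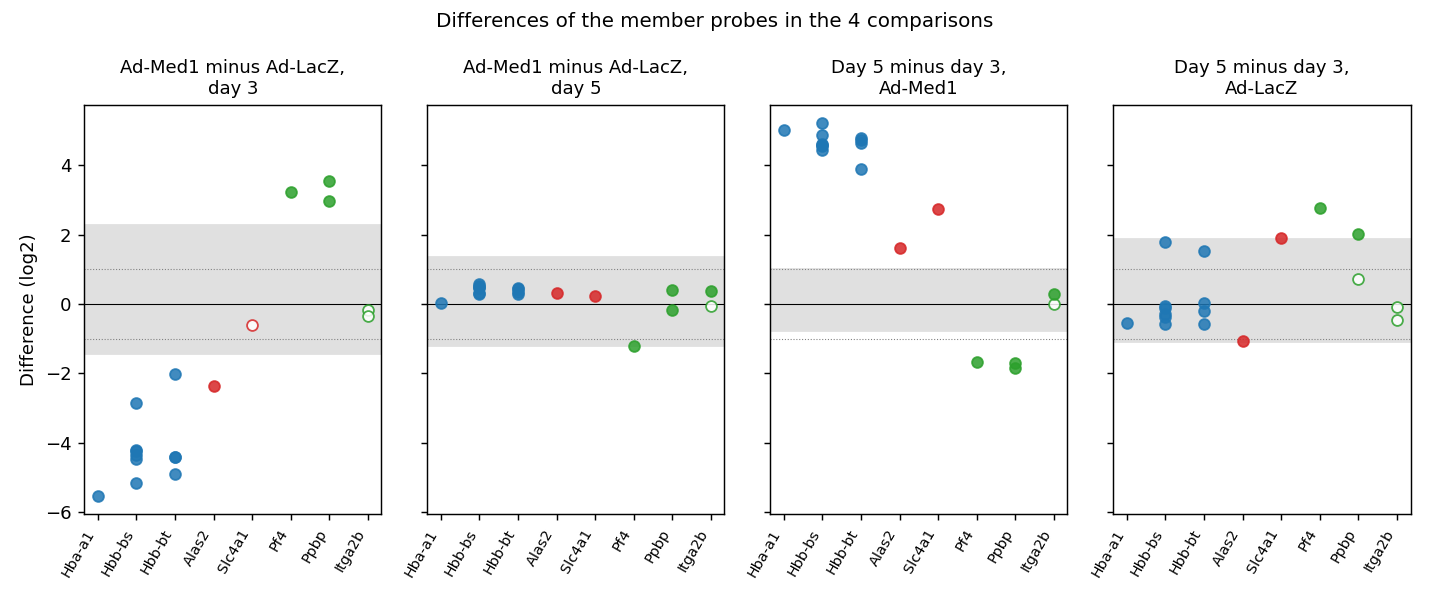
Log2 difference (y axis) of every probe of the 8 genes (x axis) in the 4 comparisons named above the panels. Blue points are globin, red erythroid and green platelet probes, open where neither array detected the probe, the grey band holds the central range of all genes tested (percentiles 5 to 95), and dotted lines mark 2-fold. The globin probes leave the band at day 3 and in the time comparison of Ad-Med1.

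Between day 3 and day 5 after Ad-Med1, all members but Itga2b differed at least 2-fold. The 3 globin genes, Alas2 and Slc4a1 were higher at day 5, and Pf4 and Ppbp were lower, where 5.02% of 9267 genes were higher and 2.91% lower. Hba-a1 was 32.2-fold higher at day 5 (5.01), Hbb-bs 24.1-fold (4.59) and Hbb-bt 27.7-fold (4.79). Over the 11 globin probes this difference ranged from 3.90 to 5.21. Alas2 was 3.05-fold higher and Slc4a1 at least 2.54-fold. Pf4 was 3.16-fold lower at day 5 and Ppbp 3.26-fold lower by ILMN_1228102 and 3.61-fold by ILMN_2908435. This comparison shares the Ad-Med1 day 3 array with the virus comparison of day 3, so the 2 are not separate observations of a low globin signal.

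Between day 3 and day 5 after Ad-LacZ, the globin genes differed less. Hba-a1 stood at -0.56, Hbb-bs at -0.38 and Hbb-bt at -0.58, and 9 of the 11 globin probes lay between -0.58 and 0.04. The other 2, ILMN_2544056 and ILMN_1235372, were higher at day 5 by 1.79 and 1.53. Alas2 was 2.10-fold lower at day 5. Pf4 was at least 3.78-fold higher, and the bounds for Slc4a1 and for ILMN_1228102 of Ppbp were 1.47-fold and 1.02-fold. In this comparison 12.1% of 8603 genes were higher and 6.47% lower, against 3 and 1 of 7 members that could be compared. Slc4a1 was higher at day 5 after both viruses.

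The virus effect over both days was fitted on all 4 arrays with limma, with a term for virus and one for day, so that 1 degree of freedom remained for the error. None of the 8 members passed an adjusted p of 0.05, and none of 9566 genes did (0% called), while 1295 genes had an unadjusted p under 0.05. For Hba-a1 the limma effect was -2.74 ± 1.48 (SE) with an adjusted p of 0.447, the smallest of the 8. Ppbp followed with 1.68 ± 1.01 (adjusted p = 0.478, limma) and Hbb-bt with -2.22 ± 1.43 (adjusted p = 0.497, limma). In this fit a difference present on one day and absent on the other counts as noise, so a pattern carried by 1 array has a large error. With 3 arrays no error remains once day is in the model, so the fits that left out an array also left out the day term. Without Ad-Med1 day 3 and the day term, the effect was -0.24 for Hba-a1 and 0.32 for Hbb-bs, and without Ad-Med1 day 5 and the day term it was -5.25 and -4.27. For Pf4 the effect was 1.01, and -0.38 without Ad-LacZ day 3 and the day term. Leaving out the day term alone kept the effects of all 3 genes as they were.

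Genes with a like pattern were looked for by the distance between 4-array profiles, each less its own mean. Of 7191 genes detected on all 4 arrays, those nearest to Hba-a1 were Hbb-bt (distance 0.55) and Hbb-bs (0.83). Next came Hsd3b5, a steroid dehydrogenase (1.85), Cyp4a12b, a fatty acid hydroxylase (2.38), and Ifi207 (2.48), all further away. In a count chosen after the values were seen, the 3 globin genes were the only ones of the 7191 to lie at least 16-fold below each of the other 3 arrays on Ad-Med1 day 3. The count was 0 on each of the other arrays. The genes nearest to Pf4 were the cytochrome Cyp2c39 (0.26), the spindle protein Ckap2 (0.32), the histones H3c1 (0.33) and H4c6 (0.38), and Rgn, a calcium-binding protein of hepatocytes (0.44), among 9566 genes detected on at least 1 array. With 4 points many genes can lie close by, and the distance is a description only.

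Beyond the members, the medians of other lists of red cell genes did not stand as low as the globins. The lists hold genes also made outside red cells, such as Alas1, and several red cell genes were detected on no array. Whether red cell transcripts as a whole differed can therefore not be read from these medians. Of 12 listed genes of haem synthesis and mitochondrial iron supply, 10 could be compared at day 3, with Alas2 alone at least 2-fold lower and Cpox, which makes protoporphyrinogen, at least 2.26-fold higher. Their median was 0.03, against -0.03 over all genes tested. It was 0.66 and 0.87 under the other 2 scalings, where all genes stood at 1.14 and 1.0. Urod and Fech, 2 later enzymes of the same pathway, differed by -0.01 and 0.06, although the other detected probes of Fech stood at -0.59 and 2.99. Uros stood at -0.76 by its brightest probe and at -1.80 and -1.87 by its others. Slc25a38, a mitochondrial glycine carrier, stood at -1.0 (0.32 with centred values). At day 5 Slc25a37, the mitoferrin that brings iron into mitochondria, was 3.66-fold higher and Uros 2.18-fold lower, with a median of -0.12. Alad, the second enzyme of the pathway, stood at -0.94.

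Of 20 listed genes of the red cell membrane, 17 had a probe and 6 were detected at day 3. Gypc, glycophorin C, was 2.28-fold higher in Ad-Med1 and none was 2-fold lower. The median of the 6 was -0.48, and 0.78 and 0.60 under the other scalings, where all genes stood at 1.14 and 1.0. Epb42, Rhag, Rhd and Kel, which are largely restricted to red cells, were detected on no array. The water channel Aqp1, the complement inhibitor Cd59a and Xk stood at -0.42, -0.77 and -0.54 at day 3. With centred values they stood at 0.63, 0.28 and 0.47, below the median of all genes of 1.0. At day 5 none of 7 reached 2-fold.

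Among 10 other erythroid and reticulocyte genes detected at day 3, Tent5c, Car1 and Fam210b were more than 2-fold lower (-1.81, -1.58 and -1.35, or -0.16, 0.04 and 0.13 with centred values) and Tfrc, the transferrin receptor, was 2.16-fold higher. Their median was -0.26, and 0.77 and 0.82 under the other scalings, where all genes stood at 1.14 and 1.0 (centred values). Car1, the carbonic anhydrase of red cells, read 7.91 in Ad-Med1 day 3, 9.49 in Ad-LacZ day 3, 7.88 in Ad-Med1 day 5 and 8.34 in Ad-LacZ day 5. Unlike the globins, Car1 was high on 1 control array and alike on both Ad-Med1 arrays. Tfrc was higher on both days (1.11 and 1.65), and Fam210b lower on both (-1.35 and -1.68). Tent5c, which stabilizes mRNA by adding poly(A), stood at 0.81 at day 5.

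Klf1, the erythroid transcription factor whose motif core is marked in the promoters above, read 6.66, 7.85, 6.81 and 7.37 on Ad-Med1 day 3, Ad-LacZ day 3, Ad-Med1 day 5 and Ad-LacZ day 5. It was 2.29-fold lower in Ad-Med1 at day 3 (0.16 with centred values, where all genes stood at 1.0) and differed by -0.56 at day 5. Gata1, Tal1 and Gfi1b, further regulators of the lineage, were detected on no array. Of 11 transcription factors with a probe, 4 could be compared at day 3 and 3 at day 5, and Klf1 at day 3 was the single one past 2-fold. Nfe2, Lmo2 and Mafg stood at 0.71, -0.59 and -0.11 at day 3.

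Platelet and megakaryocyte genes were mixed. Of 28 with a probe, 14 could be compared at day 3, with 7 past 2-fold higher and 4 past 2-fold lower. Beside Pf4 and Ppbp, the higher ones were Plek (pleckstrin), Tubb1 (the tubulin of platelets), Alox12, Tbxas1 and Gp5. The bounds were at least 1.44-fold for Plek, 1.29-fold for Tubb1 and 1.39-fold for Alox12. Gp5 had no bound, since its signal of 6.68 lay under the lowest detected signal of Ad-LacZ day 3 (6.78). For Tbxas1 the bound was 1.13-fold, and its other detected probe stood at -1.63. The lower ones were Vwf (-1.57), Clec1b (-1.47), Selp (-1.28) and Itgb3 (-1.18), of which Vwf and Selp are also made by endothelium. With centred values these 4 stood at 0.00, -0.09, -0.04 and 0.04, below the median of all genes of 1.0. Over the list the median was 0.57 at day 3, and without Pf4 and Ppbp it was -0.10. Against Ad-LacZ day 5, Plek, Tbxas1 and Alox12 of Ad-Med1 day 3 stood at -0.25, -0.67 and -0.03, and the list median was -0.04. Of 13 genes compared there, 3 were past 2-fold higher (Ppbp, Gp5 and Tubb1) and 1 lower (Selp), where 9.26% and 6.64% of all genes were. At day 5 Pf4, Vwf (-1.56) and Selp (-1.72) were past 2-fold lower, none of 12 was higher, and the median was -0.03. Gp9, Gp1bb, Gp6, Treml1 and Nrgn were detected on no array.

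**Figure D3:**
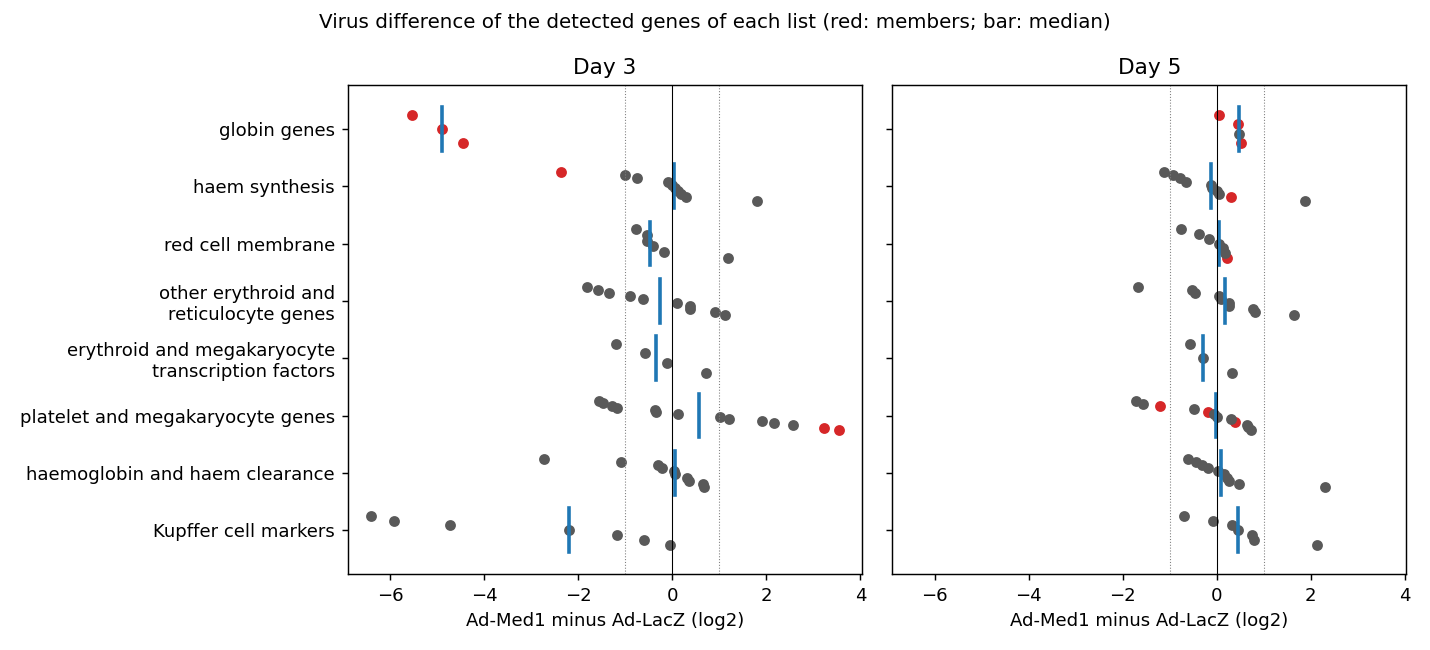
Log2 virus difference (x axis) of the detected genes of 8 lists (y axis) at day 3 and day 5. Each point is a gene by its brightest probe, red for members, the blue bar is the list's median and dotted lines mark 2-fold. At day 3 the globins lie between -5.53 and -4.46, apart from the other red cell lists.

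Markers of other cells moved with the same arrays, and their part in the globin and platelet differences was not tested. Of 7 Kupffer cell markers that could be compared at day 3, 5 were past 2-fold lower. Their median was -2.19, and -1.0 and -0.36 under the other scalings, where all genes stood at 1.14 and 1.0. Vsig4 and Clec4f were at least 62.8-fold and 39.2-fold lower in Ad-Med1 by their brightest probes, while Adgre1 stood at -0.05 (1.25 with centred values). Csf1r stood at -0.61 by its brightest probe (0.83 with centred values) and at -2.35 by the other detected one. Ad-Med1 day 3 detected 2 of the 8 and Ad-LacZ day 3 detected 7. Folr2 read 4.84 (not detected) in Ad-Med1 day 3, 9.58 in Ad-LacZ day 3, 6.20 in Ad-Med1 day 5 and 6.89 in Ad-LacZ day 5. The high array of Folr2 was Ad-LacZ day 3, whereas for the globins that array lay with those of day 5. Csf1r and Adgre1 read highest on Ad-Med1 day 5 (10.53 and 10.86). Against Ad-LacZ day 5, all 6 Kupffer cell markers compared were past 2-fold lower on Ad-Med1 day 3, where 6.64% of all genes were. After Ad-Med1, all 7 compared were past 2-fold higher at day 5 than at day 3, where 5.02% of all genes were. At day 5 Marco was at least 3.76-fold higher in Ad-Med1, and Timd4 and Vsig4 stood at 0.75 and 0.80. Of 6 liver endothelial markers detected at day 3, Oit3, Stab2 and Dnase1l3 were past 2-fold lower. The median of the 6 was -0.91, and 0.06 and 0.29 under the other scalings, also below the medians of all genes. No T or B cell marker was detected on a day 3 array, and at day 5 the T cell genes Cd3e and Cd3g stood at 2.70 and 2.18 and the B cell gene Cd79b at -0.52.

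Neutrophil markers were also measured, and their part in the globin and platelet differences was not tested. Of 8 with a probe, 7 were past 2-fold higher in Ad-Med1 at day 3 and at day 5, with medians of 1.49 and 1.90. The medians were 1.88 and 2.61 with background correction alone. With centred values they were 0.93 and 1.65, where all genes stood at 1.0 and 0.83. Ad-LacZ day 3 detected 3 of the markers, and the day 3 bounds for Camp and Retnlg were 1.18-fold and 1.14-fold. S100a9, a subunit of calprotectin, read 9.95 in Ad-Med1 day 3, 7.39 in Ad-LacZ day 3, 10.96 in Ad-Med1 day 5 and 8.46 in Ad-LacZ day 5. Sex-linked transcripts also differed between the arrays. By its brightest probe Xist read 11.17 in Ad-Med1 day 3, 9.51 in Ad-Med1 day 5 and 8.15 in Ad-LacZ day 5, and was undetected in Ad-LacZ day 3. Its 3 other detected probes were found on the same 3 arrays, but their day 5 differences were -4.63, -4.67 and -0.13 against 1.36 for the brightest, so its level at day 5 depends on the probe. Y-linked Eif2s3y read 9.52 in Ad-LacZ day 3 and 10.54 in Ad-Med1 day 5 and was undetected on the other arrays. A further Y-linked gene, Uty, was detected on those arrays and also in Ad-Med1 day 3 (6.32). Eif2s3y was thus detected in Ad-LacZ but not in Ad-Med1 at day 3, and the other way round at day 5. It also differed between the days after each virus. In these comparisons a difference in sex-linked transcripts cannot be told apart from one in virus or in day. The part of any of them in the globin values was not tested.

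**Figure D4:**
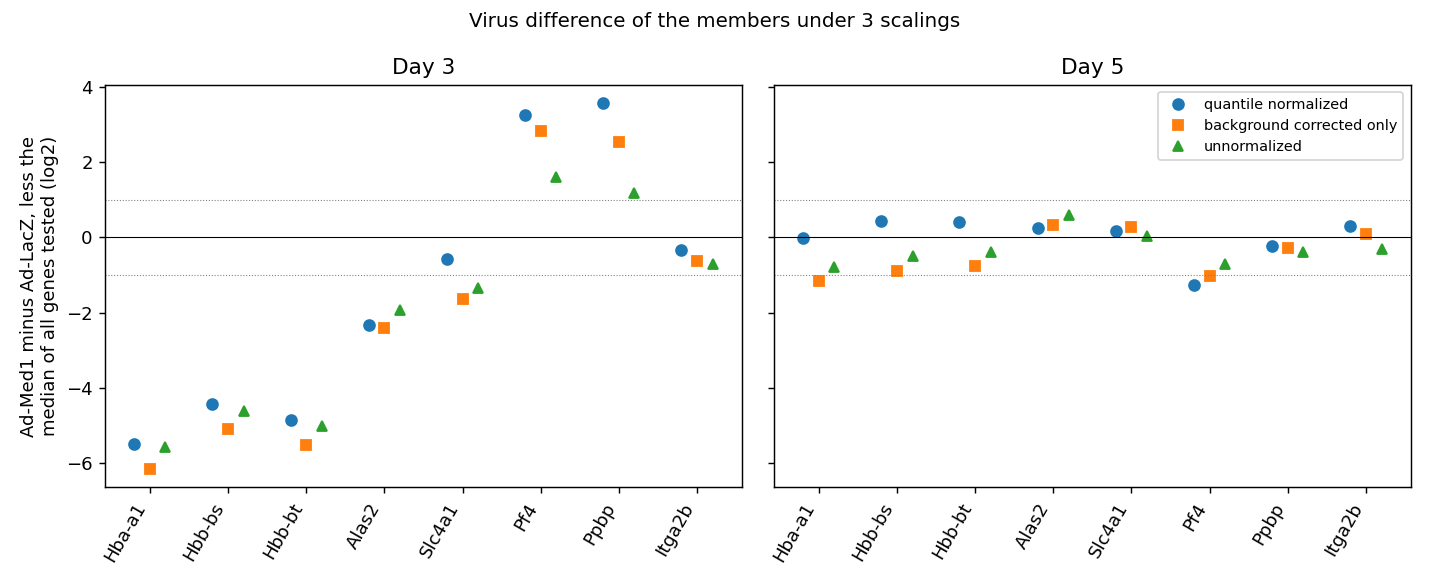
Log2 virus difference less the median of all genes tested (y axis) for the brightest probe of each of the 8 genes (x axis), at day 3 and day 5, under 3 scalings. At day 3 Hba-a1 lies at -5.50, -6.16 and -5.59 under the 3 scalings, and Pf4 at 3.26, 2.82 and 1.61.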

How the data were processed

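Total liver RNA, isolated with Trizol and treated with DNase, was amplified, biotinylated and hybridised to Illumina arrays, per the labels' protocols. The deposited table, per the file headers, holds non-normalized probe intensity on a linear scale with a detection p-value for each probe and array. The authors' series values were the same intensities (largest difference 0). The sources used here name no scanner software.

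From these, signals were computed with neqc of limma 3.58.1 in R 4.3.3 (normexp with an offset of 16, quantile normalization, log2). Gene names came from GEO's annotation of the platform, brought up to date by gene ID (99.8% of 34885 probes with 1 symbol were in the GRCm38.p6 table), 18 probes had several symbols and 10378 none. A gene was represented by its probe of highest mean signal. A gene counted as different at 2-fold or more with detection on at least 1 of the 2 arrays. Where the dim side was not detected, the fold is given as a bound against the dim array's lowest detected signal, or the probe's own where higher. The number of arrays (1 a group) limits the precision, and p-values of the limma fit, adjusted by Benjamini-Hochberg over 9566 genes, set the virus effect against its difference between days. The fit was tested on simulated data. Python 3.11.15 with pandas 2.3.3 was used otherwise.

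The members and lists were chosen with earlier results of these data known. Named by rule were all members, the 3 detected genes of largest virus difference in each list and day, and the 5 genes nearest in profile to Hba-a1 and to Pf4. Other genes (those detected on no array, and further ones behind counts past 2-fold or shown for contrast, such as Alas1) were named after their values were seen. Alternatives covered scaling (background correction without quantile normalization, and uncorrected log2 intensity less the array median), undetected values, detection and fold thresholds, the probe per gene, the control array, the day term and each array left out.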

Additional observations from a re-analysis of the deposited data

Results flagged for a closer look

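Pf4 had virus differences of opposite direction on the 2 days, 3.23 at day 3 and -1.20 at day 5, each past 2-fold. The difference between the days was not tested, since each rests on 1 array a group. The day 3 value rests on Ad-LacZ day 3, where Pf4 was not detected, and the day 5 value less the median of all genes was -1.27, -1.04 and -0.72 under the 3 scalings. No group held enough arrays to look for single outlying samples.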

How the results depend on the processing

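The globin differences at day 3 kept their direction and stayed past 2-fold in 9 alternatives each, with ranges of -5.53 to -4.59 for Hba-a1, -4.46 to -3.61 for Hbb-bs and -4.91 to -4.01 for Hbb-bt. The same genes did so in 8 alternatives of the Ad-Med1 time comparison. These genes were detected on every array, so the settings on detection and undetected values could not change their differences. Fold thresholds change only the call, and for Hba-a1, with 1 probe, the choice of probe changes nothing. Their differences could move only with the scaling, the control array or, for Hbb-bs and Hbb-bt, the probe. All these alternatives share the Ad-Med1 day 3 array. At day 3 the count of members at least 2-fold higher, 2 as reported, was 0 when both arrays had to detect the gene and 1 against Ad-LacZ day 5. In that last setting 9.26% of all genes were higher. At day 5 the count higher, 0 as reported, was 1 with centred values (Alas2) and 2 with background correction alone (Alas2 and Slc4a1). It was 3 against Ad-LacZ day 3 (Slc4a1, Pf4 and Ppbp). Of 9261 genes, 3619 were higher with centred values and 4165 with background correction alone, and 18.1% of genes were higher against Ad-LacZ day 3. The count lower at day 5, 1 as reported, was 0 under those 3 settings and at a 3-fold threshold. Of all genes, 61 were lower with centred values, 218 with background correction alone and 11.7% against Ad-LacZ day 3. Pf4 at day 5 turned to 0.11 with centred values, which is -0.72 less the median of all genes, and to 1.57 against Ad-LacZ day 3. Between the days after Ad-LacZ, the count higher, 3 as reported, was 1 with centred values, 1 with signals below detection raised to the detection limit and 0 when both arrays had to detect the gene. The count lower there, 1 as reported (Alas2), was 0 with centred values, with background correction alone and at 3-fold. Of 8603 genes, 633 were higher and 74 lower with centred values, and 163 were lower with background correction alone. Asking for detection on both arrays leaves fewer genes to test. Ad-LacZ day 3 did not detect Slc4a1, Pf4 or Ppbp, so their loss from these counts under that filter was fixed in advance. The share of all genes under that filter is not given here. A 3-fold threshold is stricter, and for the other settings the cause was not tested. In the limma fit 0 members passed in all 9 alternatives, leaving out each array (0 to 0) among them, with adjusted p-values from 0.0659 (Ppbp, centred values) to 0.995, while the number of all genes called, 0 as reported, was 4983 with centred values, 1729 with background correction alone and 413 without Ad-LacZ day 5 and the day term together. The fits that leave out an array all lack the day term, and without that term alone 0 genes were called. No paired analysis was possible because the labels give no replicate numbers and each group has 1 array. Signals near background limit what can be said of Slc4a1, Itga2b and Ppbp.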

Other observations

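Genes that clear haemoglobin and haem were mostly alike between the viruses in quantile-normalized signals. Their median was 0.05 at day 3, and 0.34 and 0.58 under the other scalings, where all genes stood at 1.14 and 1.0. Haptoglobin (Hp) and haemopexin (Hpx), the plasma proteins that bind free haemoglobin and haem, differed by -0.22 and 0.06 at day 3. Hp lay between 15.05 and 15.29 on all 4 arrays. With centred values Hp and Hpx stood at -0.52 and -0.45 at day 3 and at -0.66 and -0.78 at day 5. Both lay below the medians of all genes, 1.0 at day 3 and 0.83 at day 5. Of 10 genes of this list detected at day 3, Cd163, the macrophage receptor for haemoglobin bound to haptoglobin, was at least 2.50-fold lower in Ad-Med1 and Blvra, a biliverdin reductase, 2.15-fold lower (0.34 on the log2 scale with centred values). With centred values all genes stood at 1.0 at day 3. Cd163 was detected on Ad-LacZ day 3 alone. At day 5 Hmox1, the haem oxygenase that opens the haem ring, was 4.93-fold higher in Ad-Med1, with signals of 7.44 in Ad-Med1 day 3, 7.09 in Ad-LacZ day 3, 9.47 in Ad-Med1 day 5 and 7.17 in Ad-LacZ day 5. The arrays other than Ad-Med1 day 5 lay close together. Lrp1, the receptor that takes up haemopexin with haem, stood at 0.67 at day 3 and -0.61 at day 5, and the haem transporter Slc48a1 at -0.30 and 0.48.

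Among blood cell growth factors, Epo, Kitl and Csf3 were detected on no array. By its brightest probe Igf1 was 2.69-fold lower in Ad-Med1 at day 3 and 2.08-fold lower at day 5. Its other detected probe stood at -0.92 and -0.60, under 2-fold on both days. Csf1, the macrophage growth factor, was at least 1.25-fold higher at day 3. Gas6 stood at 0.21 and 0.50. The embryonic globins Hba-x, Hbb-bh1 and Hbb-y were detected on no array, and Hbb-b2 on Ad-Med1 day 5 alone (6.39).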
